A study of Mus musculus with 9 samples.

Results

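Supervillin, the product of Svil, is a large member of the villin and gelsolin family that binds actin and myosin. It ties the actin skeleton to membranes, and in striated muscle it lies at the costameres, the sites where the outermost myofibrils are held to the fibre membrane. The series asks how mice with either of 2 alterations of this gene use their muscles, handle glucose and respond to insulin, and the comparison described here sets the muscles of the 2 altered strains directly against each other. It was made over every gene with a normalized count of at least 10 in at least 3 of the 6 libraries of the strains, which left 14640 of the 56805 genes in the table. A normalized count is the number of reads of a gene divided by a size factor of its library, and it is the unit of all levels below.

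RNA came from the tibialis anterior (TA) of the left leg, a mostly fast muscle that lifts the foot, in male mice aged 13 months. The 6 libraries compared were those of 3 mice of genotype Svil-KO (replicates 1, 3 and 4) and 3 mice of genotype Svil-Mut (replicates 1, 2 and 4). The 3 WT mice (replicates 1, 3 and 4) give the reference level and add to the estimate of the spread, so 6 of the 9 samples of the series are compared. No treatment is named for any group, and all 9 libraries carry the batch label 1. The altered part of Svil is not named for either strain, and neither is it stated whether every tissue carries the alteration or what the genetic background is. Oligo(dT)-primed cDNA was amplified with a SMARTer low-input kit, which does not mark strand, so reads of overlapping or antisense genes cannot be told apart.

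Depth in the 6 libraries was 36536710 to 48762188 reads. All 10 skeletal muscle fibre markers, the check of the labelled tissue, were measured in every library, and their summed normalized count was 6491890 to 7313320 in Svil-KO and 7514050 to 8124420 in Svil-Mut. The first principal component of the 6 libraries held 27.55% of the variance, with Svil-KO at -20.6, -26.3 and -30.0 and Svil-Mut at 11.4, 73.3 and -7.76. Svil-Mut replicate 2 stood apart there. Svil-Mut replicate 4 stood apart on the second component (22.64% of the variance), at -70.6. Mitochondrially encoded transcripts made up 6.27, 5.87 and 6.56% of reads in Svil-KO and 5.03, 4.77 and 3.93% in Svil-Mut.

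Svil was higher in Svil-KO than in Svil-Mut. Its normalized count (protein-coding gene ENSMUSG00000024236.18 on the plus strand of GRCm38 chromosome 18, 4920540 to 5119299) was 7402, 6746 and 6656 in Svil-KO, 4615, 3939 and 4582 in Svil-Mut and 8686, 9373 and 8407 in WT. The 3 genotypes do not overlap: every Svil-KO library lies between the WT and the Svil-Mut libraries. The difference of Svil-KO from Svil-Mut was 0.67 ± 0.086 (SE) on the log2 scale, or 1.59-fold (limma adjusted p = 0.0262). A 2-sided exact permutation test of this gene alone gave p = 0.1, the smallest that 3 against 3 libraries can give. The call of Svil over all genes was lost under 9 of 22 alternatives, among them leaving out any of the 3 Svil-KO libraries, Svil-Mut replicate 2 or WT replicates 1 or 4, with adjusted p up to 0.297 and a log2 difference of 0.58 to 0.71. A count over the whole gene does not show whether the transcripts left in either strain are intact.

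Differences are given throughout as Svil-KO minus Svil-Mut on the scale log2(normalized count + 1), and genes were called at a limma p under 0.05 after Benjamini-Hochberg adjustment over all 14640 genes. By this rule 7 genes were called (0.0478% of those tested), 2 higher in Svil-KO (0.0137%), Svil and Mib1, and 5 lower in Svil-KO (0.0342%), Fos, Atf3, Klf4, Dusp1 and Id1. An unadjusted p under 0.05 was reached by 1515 genes (10.3%), 813 higher (5.55%) and 702 lower (4.8%). The 3 libraries of each strain did not overlap for 2267 genes (15.5%), 1120 higher (7.65%) and 1147 lower (7.83%) in Svil-KO. The median log2 difference of all genes tested was 0.01, and 51.4% of them had a positive and 48.6% a negative difference. On the whole reads recovered from the table, edgeR's quasi-likelihood test called the same 7 genes and gave an unadjusted p under 0.05 for 1442 (9.85%). DESeq2 called 207 (1.41%), 95 higher (0.649%) and 112 lower (0.765%), all 7 among them. All 22 alternatives called Fos, Atf3 and Mib1, and Id1 and Dusp1 under 20 and Klf4 under 13.

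**Figure D1:**
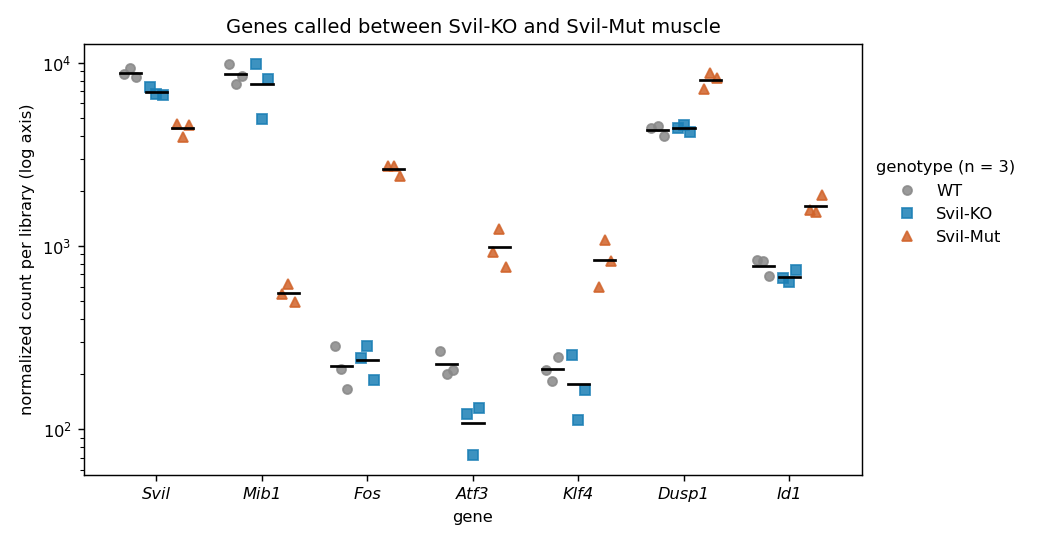
Normalized counts of the 7 called genes, on a log axis, in each library of WT (circles), Svil-KO (squares) and Svil-Mut (triangles), with a bar at the mean of 3 libraries. The Svil-Mut libraries lie above every Svil-KO library for Fos, Atf3, Klf4, Dusp1 and Id1 and below every one for Mib1 and Svil.

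**Figure D2:**
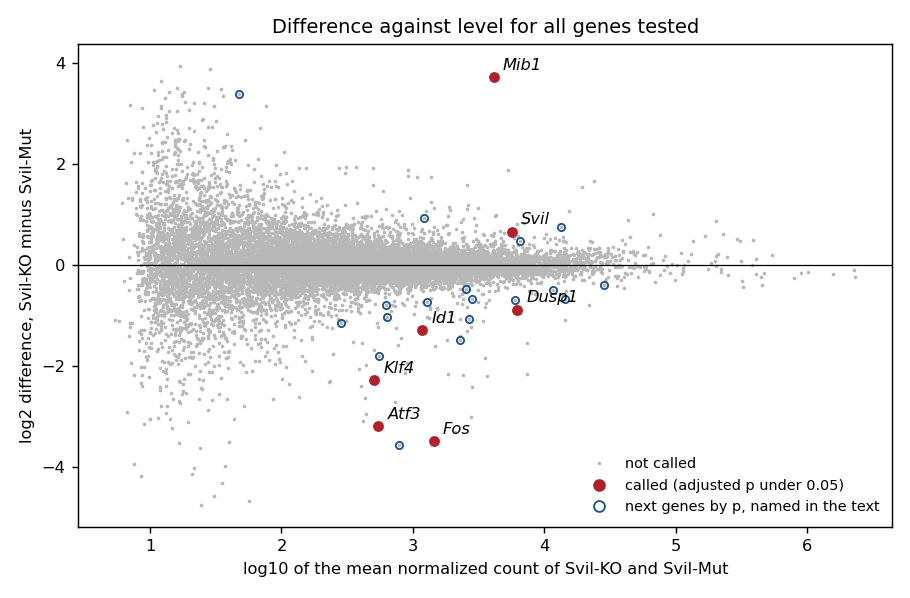
The log2 difference of Svil-KO from Svil-Mut (vertical axis) for each of the 14640 genes tested, against log10 of its mean normalized count in the 2 strains (horizontal axis). Filled points are the 7 called genes and open circles the 18 genes that come next by p, while the wide spread on the left is that of genes with low counts.

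The 5 genes called lower in Svil-KO encode regulators of transcription and signalling that many cells induce within minutes of a stimulus or, for Id1, in response to bone morphogenetic proteins (BMP). Fos, which pairs with Jun proteins in the AP-1 factor (GRCm38 chromosome 12, 85473890 to 85477273), was at 245, 284 and 185 in Svil-KO and 2739.8, 2732 and 2418 in Svil-Mut. The WT libraries, at 287, 214 and 167, lie with Svil-KO, and the difference was -3.48 ± 0.21 (SE, adjusted p = 5.26e-05), an 11.1-fold lower level in Svil-KO. Atf3, a stress-induced factor of the CREB and ATF family (chromosome 1, 191170296 to 191218039), was at 121, 72.4 and 132 in Svil-KO against 933, 1246 and 771 in Svil-Mut. Its Svil-KO libraries lie below the WT libraries (267, 201 and 211) and its Svil-Mut libraries above them (difference -3.19 ± 0.26 SE, adjusted p = 0.000684). Klf4, a zinc finger transcription factor (chromosome 4, 55527143 to 55532466), was at 253, 112 and 163 against 602, 1074 and 831, with WT at 211, 183 and 248. The difference was -2.28 ± 0.30 (SE, adjusted p = 0.0273), and the call was lost under 9 alternatives, with adjusted p up to 0.222.

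Dusp1, a phosphatase that switches off MAP kinases (chromosome 17, 26505590 to 26562128), was at 4404, 4572 and 4169.9 in Svil-KO and 7146, 8845 and 8267 in Svil-Mut. WT lay at 4406, 4502 and 3983, so the Svil-KO and WT libraries overlap and the Svil-Mut libraries stand above both. The difference was -0.88 ± 0.092 (SE, adjusted p = 0.00463). In the annotation, Ergic1, on the other strand, overlaps the span of Dusp1. Id1, which sequesters basic helix-loop-helix factors (chromosome 2, 152736251 to 152737410), was at 668, 635 and 744 against 1575, 1527 and 1891, and at 836, 826 and 684 in WT. Its difference was -1.28 ± 0.13 (SE, adjusted p = 0.00374). Both genes lost their calls in 2 alternatives, a variance model without a mean-variance trend and a fit with a replicate block, with adjusted p up to 0.158 for Dusp1 and up to 0.0711 for Id1.

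The 250 bases before the RefSeq start of Fos, Atf3, Dusp1 and Klf4 are shown because all 4 genes were called lower in Svil-KO, and the first 3 hold the core of a response element there. They come from RefSeq (build GRCm38.p6), which had a window for 4 of the 7 called genes. They lie at chr12:85473640-85473889 (Fos, plus strand), chr1:191183334-191183583 (Atf3, minus strand), chr17:26508473-26508722 (Dusp1, minus strand) and chr4:55532476-55532725 (Klf4, minus strand). The GENCODE spans given above for Atf3 and Dusp1 reach further upstream than these starts, so their windows lie inside those spans. Each is written 5′ to 3′ on the strand of its gene, and capitals mark every match, on either strand, to the motifs listed after them.
Fos: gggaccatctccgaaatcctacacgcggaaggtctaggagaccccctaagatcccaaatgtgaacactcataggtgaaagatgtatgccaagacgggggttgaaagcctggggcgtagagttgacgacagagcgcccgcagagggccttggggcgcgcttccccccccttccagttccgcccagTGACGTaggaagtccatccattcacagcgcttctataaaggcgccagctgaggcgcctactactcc
Atf3: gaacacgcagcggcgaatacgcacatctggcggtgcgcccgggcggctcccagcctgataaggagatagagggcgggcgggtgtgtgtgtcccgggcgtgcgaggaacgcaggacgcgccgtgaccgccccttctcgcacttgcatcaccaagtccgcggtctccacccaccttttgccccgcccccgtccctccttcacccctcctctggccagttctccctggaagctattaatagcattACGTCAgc
Dusp1: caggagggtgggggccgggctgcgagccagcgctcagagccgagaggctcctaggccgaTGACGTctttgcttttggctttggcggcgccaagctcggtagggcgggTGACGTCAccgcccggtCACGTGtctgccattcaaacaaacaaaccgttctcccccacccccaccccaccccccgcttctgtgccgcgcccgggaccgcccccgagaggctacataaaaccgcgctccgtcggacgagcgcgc
Klf4: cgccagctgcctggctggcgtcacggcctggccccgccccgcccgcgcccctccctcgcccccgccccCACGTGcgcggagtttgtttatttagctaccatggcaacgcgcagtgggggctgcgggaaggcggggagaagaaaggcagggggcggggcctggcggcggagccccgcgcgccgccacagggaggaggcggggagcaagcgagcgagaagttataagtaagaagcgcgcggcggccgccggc

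The motifs searched on both strands were the cyclic AMP response element, CRE (TGACGTCA), its 6-base core (TGACGT), the AP-1 site (TGANTCA), the CArG box bound by serum response factor, and the E-box (CACGTG). The core, which is part of every full CRE, was added to the search after the windows had been read. A CRE core begins 66 bases before the start of Fos and 8 bases before that of Atf3. Dusp1 holds a full CRE that begins 143 bases before the start, an E-box at 126 and a separate CRE core at 191, and Klf4 an E-box at 182. No AP-1 site or CArG box was matched in the 4 windows. Over all 32851 RefSeq windows of this length, a full CRE occurred in 1.546%, its core in 6.469%, an AP-1 site in 6.749%, a CArG box in 1.467% and an E-box in 6.021%. Among the 10443 tested genes with a window the shares were 2.968, 11.44, 5.602, 1.465 and 9.93% in the same order. Here a gene counts if any of its windows matches, so these shares and those over windows are in unlike units. The 25 immediate early genes that were tested and have a window were counted by gene too. Of these, 3 held a full CRE, 8 a core, 1 an AP-1 site, 3 a CArG box and 5 an E-box. The counts include the 4 genes shown, so the core matches of Fos, Atf3 and Dusp1 had been seen before the core was searched. These are matches of letters, and no binding was measured.

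The other called gene, Mib1, had the highest fold difference of the 7. It encodes an E3 ubiquitin ligase that marks Notch ligands for uptake into the signal-sending cell, a step that Notch signalling needs. Its normalized count (ENSMUSG00000024294.14, chromosome 18, 10725548 to 10818704, plus strand) was 9896, 4939 and 8127 in Svil-KO and 547, 623 and 496 in Svil-Mut, with WT at 9818, 7634 and 8474. All 3 Svil-Mut libraries lie far below the other 6, and Svil-KO replicate 3 is the lowest of those. The difference was 3.73 ± 0.21 (SE, adjusted p = 5.26e-05), or 13.3-fold. Mir133a-1hg, the antisense host of the muscle microRNAs miR-133a-1 and miR-1a-2, lies within Mib1. It was at 358, 379 and 368 in Svil-KO and 265, 242 and 359.5 in Svil-Mut, which overlap (log2 difference 0.37, adjusted p = 0.546), and reads of the pair cannot be told apart without strand.

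Of the 33 Notch genes tested, only Mib1 was called, and their median was 0.07, against 0.01 for all genes. Mib2, the related ligase, was at 1083, 1235 and 1174 in Svil-KO and 1027, 779.9 and 749 in Svil-Mut, without overlap (log2 difference 0.46, adjusted p = 0.403). The ligand gene Jag2 was at 1379, 1201 and 1249.6 and 1082, 1010.0 and 1097, also without overlap (log2 difference 0.26, adjusted p = 0.416). Hes1, a target of Notch signalling, was at 1210.5, 555 and 695 in Svil-KO and 1580.2, 2982 and 877 in Svil-Mut (log2 difference -1.05, adjusted p = 0.405). Its strains overlap, and the direction is the opposite of that of Mib1. Without overlap were 7 of the 33 genes, 5 higher and 2 lower in Svil-KO.

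Mib1 and Svil lie on the same chromosome, with midpoints 5.75 Mb apart. Within 10 Mb of Svil, 49 genes were tested, Svil itself included. Of them, 14 (28.6%), also counting Svil, had no overlap between the strains, against 15.5% of all genes. Of these 14, 5 were higher and 9 lower in Svil-KO, and only Svil and Mib1 were called. Kif5b, a kinesin heavy chain whose midpoint is 1.20 Mb from that of Svil, was at 4570.2, 5183 and 4120.4 in Svil-KO and 7176, 7054 and 7979.9 in Svil-Mut, with WT at 4436, 5162 and 4618. Svil-KO and WT overlap and Svil-Mut lies above both, but the difference was not called (-0.68 ± 0.1 SE, adjusted p = 0.0608). Npc1, which moves cholesterol out of lysosomes, was at 1334, 1671 and 1730.5 against 861, 658 and 975 (log2 difference 0.93, adjusted p = 0.119), 7.19 Mb from Svil.

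Directions differed between close neighbours. Riok3, a kinase gene 7.12 Mb from Svil, was at 8513, 8637 and 7334 in Svil-KO and 10121, 10346 and 10860 in Svil-Mut (log2 difference -0.36, adjusted p = 0.18), the opposite direction to Npc1 nearby. Impact, an inhibitor of the eIF2 kinase GCN2, was at 601, 559 and 641 and 727, 1002 and 975 (log2 difference -0.57, adjusted p = 0.24). Abhd3, a phospholipase gene 5.65 Mb from Svil and next to Mib1 in this set, was at 23.1, 25.5 and 67.8 and 111, 128 and 107 (log2 difference -1.72, adjusted p = 0.265). All 3 were higher in every Svil-Mut library than in any Svil-KO library. The predicted gene Gm6277 overlaps the start of Cables1 on the other strand. It had 0 to 8.77 in Svil-KO and 17.2 to 41.6 in Svil-Mut. Cables1 was at 79.2, 33.6 and 124 in Svil-KO and 135, 149 and 192 in Svil-Mut (log2 difference -1.17, adjusted p = 0.403), also without overlap. With a window of 20 Mb, 18 of 76 genes (23.7%), Svil again included, had no overlap and the same 2 genes were called. The labels do not say which segments of the chromosome the strains share, and the part of such segments in these differences was not tested.

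**Figure D3:**
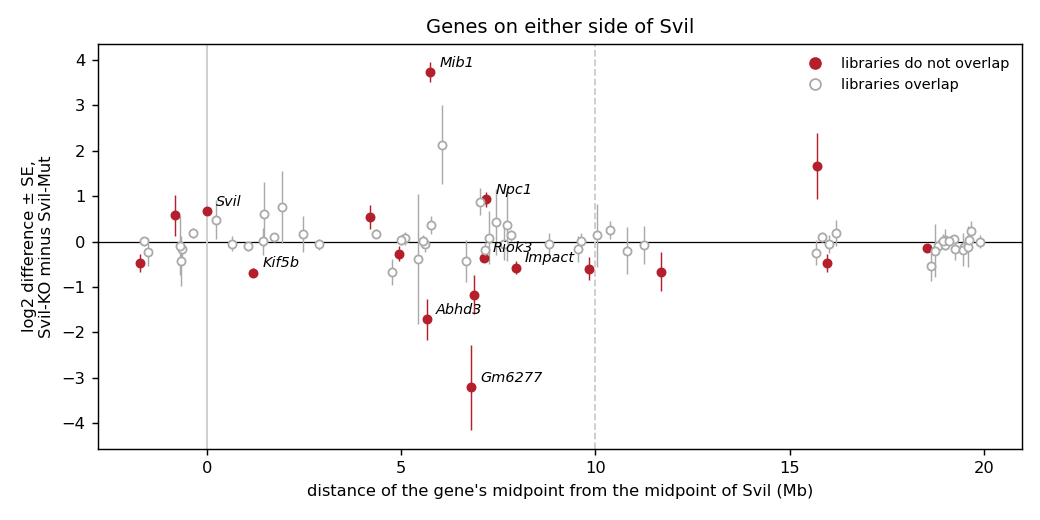
The log2 difference of Svil-KO from Svil-Mut with its SE (vertical axis) for genes on the chromosome of Svil, against the distance of the gene's midpoint from that of Svil in Mb (horizontal axis). Filled points are genes whose strains do not overlap, and the dashed line marks 10 Mb: Mib1 and Npc1 are higher in Svil-KO, and Kif5b, Abhd3, Riok3, Impact and Gm6277 lower.

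The 18 genes that come next by p, among those without overlap and with a mean of at least 50 in the higher strain, were not called (adjusted p = 0.0608 to 0.144). Among regulators, Klf2, a flow-responsive factor of the endothelium, was at 1749, 874 and 1117 in Svil-KO and 3891, 3302 and 2856 in Svil-Mut (log2 difference -1.47, adjusted p = 0.0831). Apold1, an early-response gene of endothelial cells, was at 298, 90.7 and 50.2 against 1609, 1861 and 778 (log2 difference -3.57, adjusted p = 0.0873). Its Svil-KO libraries spread widely, replicate 1 being the highest. Sertad1, a transcriptional coregulator that binds CDK4, had a log2 difference of -1.02. Lrrc32 (GARP), which holds latent TGF-beta at the cell surface, was at 291, 189 and 243 and 635, 1275 and 694 (log2 difference -1.80), and Adamts1, a secreted metalloprotease, at 1774, 1505 and 1834 and 3720.3, 3138 and 3906 (log2 difference -1.07). The last 3 had an adjusted p = 0.0831.

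Genes of the cytoskeleton and the membrane were also among these. Actb, cytoplasmic beta-actin, was at 11644, 10833 and 10819.9 in Svil-KO and 16552, 20189.8 and 16691 in Svil-Mut (log2 difference -0.68, adjusted p = 0.0831). Pdlim3, a Z-disc protein that binds alpha-actinin, was at 24564, 24639 and 24361 in Svil-KO, 29863, 34110.5 and 32329 in Svil-Mut and 29225, 29927 and 29549 in WT. Here it is Svil-KO that lies apart, below all 6 other libraries (log2 difference from Svil-Mut -0.39, adjusted p = 0.0887). Nav3, which binds microtubule ends, was at 66.0, 111 and 81.3 against 7.13, 2.86 and 16.1 (log2 difference 3.39, adjusted p = 0.0831), with the Svil-Mut libraries near or under a count of 10. Clic4, a chloride intracellular channel protein, had a log2 difference of -0.66, and Slc2a1, the glucose transporter GLUT1, one of -0.78. Iigp1, an interferon-inducible GTPase, was at 216, 160.0 and 154 in Svil-KO and 375, 392 and 396 in Svil-Mut (log2 difference -1.15, adjusted p = 0.144).

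Mitochondrial and endoplasmic reticulum (ER) genes made up the remainder. Cluh, which binds messenger RNAs of mitochondrial proteins, was at 7472, 7634 and 7720.1 in Svil-KO and 5957, 5300.2 and 5238 in Svil-Mut, with WT at 6784, 6026 and 6626 (log2 difference 0.47, adjusted p = 0.0831). Its Svil-KO libraries lie above and its Svil-Mut libraries below every WT library. Tmem65, a mitochondrial inner membrane protein, was at 16756, 15135 and 18637 against 11838, 8831 and 9428 (log2 difference 0.75, adjusted p = 0.119). In the ER, Hspa5, the chaperone BiP, was at 9266, 9666 and 10308 and 12161, 14344 and 14454 (log2 difference -0.48, adjusted p = 0.0888). Slc35b1, an ER nucleotide transporter, had a log2 difference of -0.47, and Ppp1r15a, which restarts translation after eIF2 has been phosphorylated, one of -0.74.

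To see how whole pathways compared, 36 pathway lists and 9 lists of cell type markers were read gene by gene. For each list the median log2 difference stands against the 0.01 of all genes, and the share of members without overlap against the 15.5% of all genes. Because whole muscle was sequenced, fewer cells of a type and less RNA per cell cannot be told apart. A list's level in a library is the median, over its tested members, of the log2 distance from the WT mean. When 1 of the 6 libraries was left out, the median of each of the 21 lists nearer 0 than 0.1 moved by over 1.5 times or changed sign under at least 1 such omission, so these medians are read only as close to 0. The same held for 15 of the other 24 lists.

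**Figure D4:**
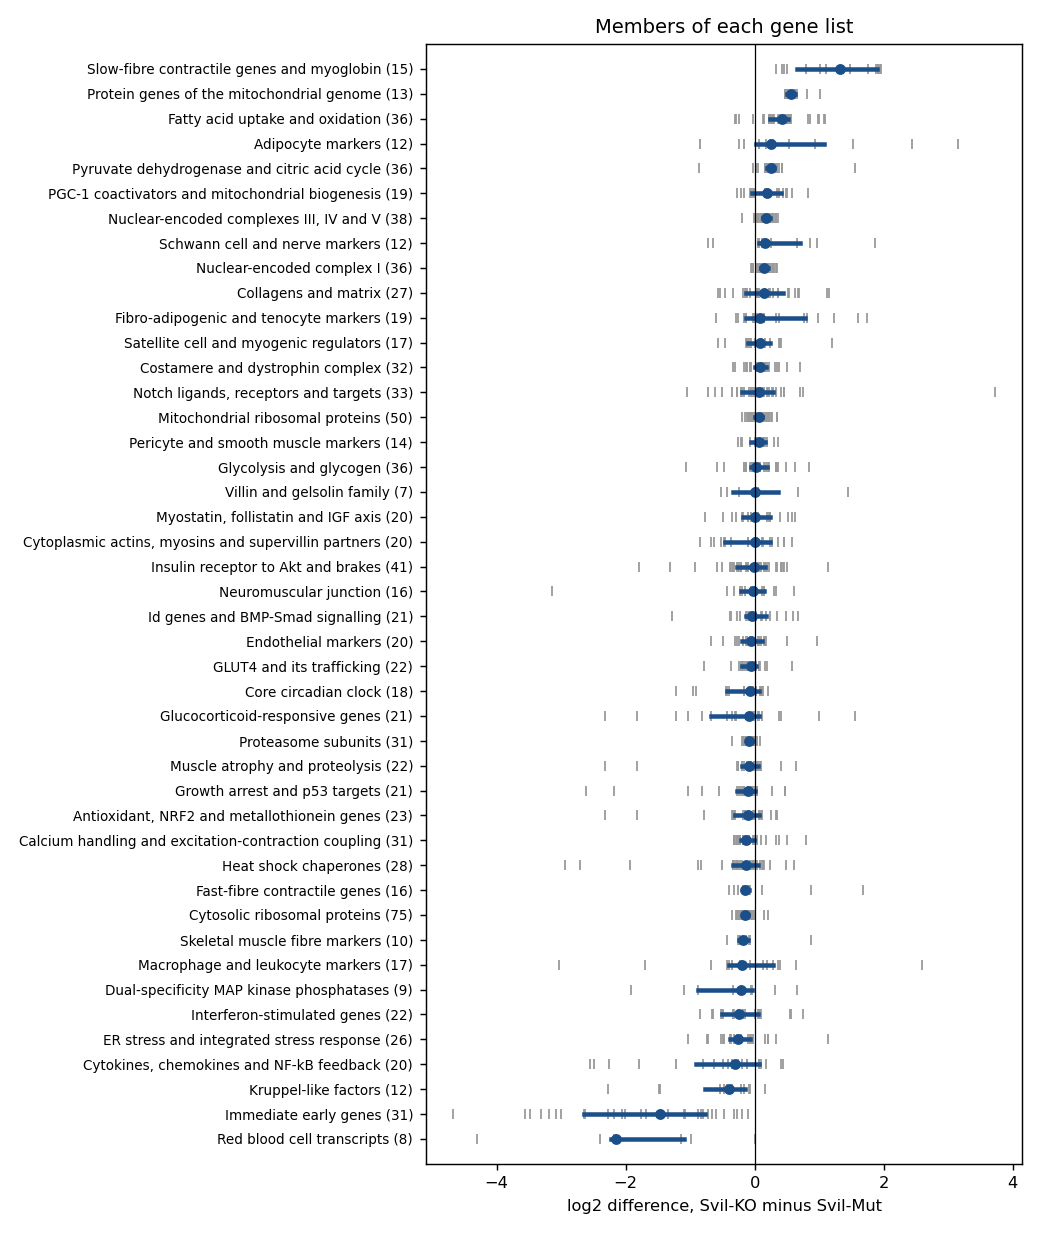
The log2 difference of Svil-KO from Svil-Mut for each tested member (grey ticks) of every list except the chondrocyte and bone markers, with the list's median (point) and the interquartile range of its members (bar). The number of members tested is in brackets, and the lists run from slow-fibre genes (median 1.33) to red blood cell transcripts (median -2.16).

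Immediate early genes, which are transcribed within minutes of a stimulus and without new protein, were lower in Svil-KO than in Svil-Mut. Of 32 on the list, 31 were tested, all 31 had a negative difference (median -1.47), and 4 were called, Fos, Atf3, Dusp1 and Klf4. Without overlap were 17 of the 31, and 24 had an unadjusted p under 0.05. The Svil-Mut libraries had list levels of 1.77 (replicate 1), 2.11 (replicate 2) and 1.41 (replicate 4), and the Svil-KO libraries 0.69 (replicate 1), -0.07 (replicate 3) and -0.04 (replicate 4). The WT libraries lay at -0.06 to 0.11, so only Svil-KO replicate 1 departed from them within Svil-KO. Without that library the median was -1.70 and 13 genes were called over all genes, 6 of the 7 (without Svil) and Apold1, Klf2, Csrnp1, Stc1, Nr4a1, Sik1 and Egr1.

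Members of the AP-1 family differed in how evenly they did so. Fosl2 was at 221, 185 and 258 in Svil-KO and 553, 1311 and 487 in Svil-Mut (log2 difference -1.68, adjusted p = 0.145). Junb was at 933, 248 and 214 against 2389.6, 11759 and 923, so that Svil-KO replicate 1 and Svil-Mut replicate 4 overlap (log2 difference -3.01, adjusted p = 0.265). Jun, at 4706, 4364 and 5298 and 6199, 4853 and 6949.5, overlapped too, with a log2 difference of -0.31. Among the nuclear receptors of the Nr4a family, Nr4a1 was at 13696, 7665 and 6885 and 15469, 22784 and 19767 (log2 difference -1.09, adjusted p = 0.155) and Nr4a3 at 212, 61.1 and 102 and 432, 1039.6 and 730.4 (log2 difference -2.64, adjusted p = 0.221). Egr1, a zinc finger factor of the same early wave, was at 2159, 107 and 84.5 in Svil-KO, where replicate 1 stands far above the others, and at 6695, 1661 and 1753 in Svil-Mut (log2 difference -3.31, adjusted p = 0.328).

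Lists of feedback and growth arrest genes had medians nearer 0. They share members with the immediate early list, among them Btg2, Dusp1, Klf2, Klf4 and Klf6, so these genes are counted again here. Of 21 growth arrest genes and p53 targets, 15 had a negative and 6 a positive difference (median -0.10), 4 had no overlap and none was called. Among them Btg2, which slows the cell cycle, was at 2089, 754 and 1013 in Svil-KO and 4392, 10372 and 3300.2 in Svil-Mut (log2 difference -2.19, adjusted p = 0.145). Of the 9 tested dual-specificity phosphatases, 7 had a negative difference (median -0.21, and -0.34 without Svil-KO replicate 3), and only Dusp1 was called. Dusp2 had a log2 difference of -1.92 (adjusted p = 0.145), while Dusp7 had the opposite sign, at 2842, 2629 and 3105 in Svil-KO and 2163, 1422 and 1907 in Svil-Mut (log2 difference 0.66, adjusted p = 0.169). Of 12 Krüppel-like factors, 11 had a negative difference (median -0.40) and Klf4 was called. Klf10 was at 1111, 568 and 968 and 2323, 4594 and 1255 (log2 difference -1.48, adjusted p = 0.296). The ligand-induced brakes of cytokine signalling included Socs3, at 53.9, 46.9 and 85.3 in Svil-KO and 203, 134 and 342 in Svil-Mut (log2 difference -1.79, adjusted p = 0.217). Of the 20 tested cytokine, chemokine and NF-kB feedback genes, 14 had a negative difference (median -0.31, and -0.20 without Svil-Mut replicate 4), 4 had no overlap and none was called.

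Red blood cell transcripts were highest in Svil-Mut replicates 2 and 4. They stood at 0.19 in Svil-Mut replicate 1, 1.40 in replicate 2 and 3.21 in replicate 4, at 0.07, -0.23 and -0.29 in Svil-KO and at -0.26 to 0.60 in WT, and their summed count was 7079.5 to 11065 in Svil-KO and 10717 to 54009 in Svil-Mut. Hba-a1, an alpha-globin gene, was at 1154, 356 and 705 in Svil-KO and 1185, 2742 and 8297 in Svil-Mut (log2 difference -2.18, adjusted p = 0.296). Alas2, the haem synthesis enzyme of erythroid cells, was at 109, 84.6 and 90.9 and 214, 393 and 1502 (log2 difference -2.40, adjusted p = 0.318). Of the 8 markers tested, 7 had a negative difference, 5 had no overlap and none was called (median -2.16, and -1.37 without Svil-Mut replicate 4). Svil-Mut replicate 1 lay within the range of the WT libraries for these transcripts. The part of red blood cells in the other differences was not tested.

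Id1 was the only called gene among the 21 tested Id and BMP-Smad genes, whose median was -0.04. Its relatives Id3 (-0.23), Id2 (0.34) and Id4 (-0.38) overlapped between the strains. Smad5, which carries the BMP signal into the nucleus, was at 1208, 1197 and 1212 in Svil-KO and 812, 1026 and 764 in Svil-Mut (log2 difference 0.49, adjusted p = 0.282). The ligand gene Bmp6 had a log2 difference of 0.59 and the receptor gene Bmpr1a one of 0.17. Both lay higher in every Svil-KO library, the opposite direction to Id1, and neither was called.

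Genes of mitochondrial energy metabolism were higher in Svil-KO than in Svil-Mut, by small amounts and without a called gene. The 13 protein genes of the mitochondrial genome, which encode core subunits of the respiratory chain, all had a positive difference (median 0.56), and 11 had no overlap. Mt-Nd5, a complex I subunit, was at 274623, 253591 and 298266 in Svil-KO and 201508, 198740 and 141318 in Svil-Mut (log2 difference 0.63, adjusted p = 0.175). Svil-Mut replicate 4 is the lowest, and the list's level was -0.42, -0.32 and -0.82 in the Svil-Mut libraries, -0.04 to 0.10 in Svil-KO and -0.16 to 0.15 in WT. DESeq2 called 6 of the 13. Without Svil-Mut replicate 4 the median was 0.39.

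Nuclear genes of the same machinery gave the same sign. Of 36 complex I genes, 32 had a positive difference (median 0.15, and 0.09 without Svil-Mut replicate 4) and 18 had no overlap. Ndufs1, its largest subunit, was at 25339, 24061 and 24455 in Svil-KO and 21111, 20512 and 16789 in Svil-Mut (log2 difference 0.35, adjusted p = 0.24). Of 38 genes of complexes III, IV and V, 36 were positive (median 0.18, and 0.12 without Svil-Mut replicate 4) and 26 had no overlap. Uqcrc1, a core protein of complex III, was at 68351, 66852 and 71148 and 61764, 54371 and 46263 (log2 difference 0.36, adjusted p = 0.285). Svil-Mut replicate 1 stood nearest to Svil-KO for both genes and replicate 4 farthest, and the level of the second list was -0.11, -0.22 and -0.32 in Svil-Mut against -0.06 to -0.02 in Svil-KO. Of 50 mitochondrial ribosomal proteins, 38 were positive, and 8 were higher and 3 lower in Svil-KO without overlap. Their median of 0.06, or 0.03 without Svil-Mut replicate 4, is read only as close to 0.

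Pyruvate dehydrogenase and the citric acid cycle, which feed the respiratory chain, had 34 of 36 genes positive (median 0.25), and 22 were higher in every Svil-KO library than in any Svil-Mut library. Pdha1, the catalytic subunit of pyruvate dehydrogenase, was at 23380.2, 22870 and 25089 in Svil-KO and 20798, 19289.6 and 16404 in Svil-Mut (log2 difference 0.34, adjusted p = 0.24). Its activating phosphatase Pdp1 was at 7128, 6229.6 and 6246 and 4822, 4846 and 5432 (log2 difference 0.38, adjusted p = 0.209). Pdk4, the kinase that switches the complex off, was at 17239, 19049.5 and 52098 and 5976, 9859 and 11614 (log2 difference 1.55, adjusted p = 0.319). Genes of opposite action on the complex were thus both higher in every Svil-KO library, and the highest Pdk4 count was that of Svil-KO replicate 4.

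Of 36 genes of fatty acid uptake and oxidation, 32 were positive (median 0.42), and 15 were higher in Svil-KO without overlap. Acadvl, which opens the oxidation of long chains, was at 14199, 12389.9 and 15836 in Svil-KO and 11916, 9070.1 and 8488 in Svil-Mut (log2 difference 0.53, adjusted p = 0.24). Lipe, hormone-sensitive lipase, was at 503, 617 and 653 and 306, 248 and 346 (log2 difference 0.98, adjusted p = 0.24). Lipe is also abundant in fat, and the level of the adipocyte markers was -0.24, -0.92 and 0.04 in Svil-Mut and -0.12 to -0.02 in Svil-KO. Of the 12 adipocyte markers tested, 9 had a positive and 3 a negative difference, and none was without overlap. Their median was 0.26, and 0.14 to 0.58 with 1 of the 6 libraries left out. The part of fat in the difference of Lipe was not tested. Among 19 genes of the PGC-1 programme of mitochondrial biogenesis, 12 were positive (median 0.19). Esrra, a nuclear receptor that works with PGC-1, was at 3530.2, 3850.1 and 3976 and 3326, 2997 and 2447 (log2 difference 0.38, adjusted p = 0.319), and Ppargc1a, which encodes PGC-1alpha, at 1944, 2409 and 2072 and 1920.2, 1910.2 and 1786 (log2 difference 0.19, adjusted p = 0.681).

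**Figure D5:**
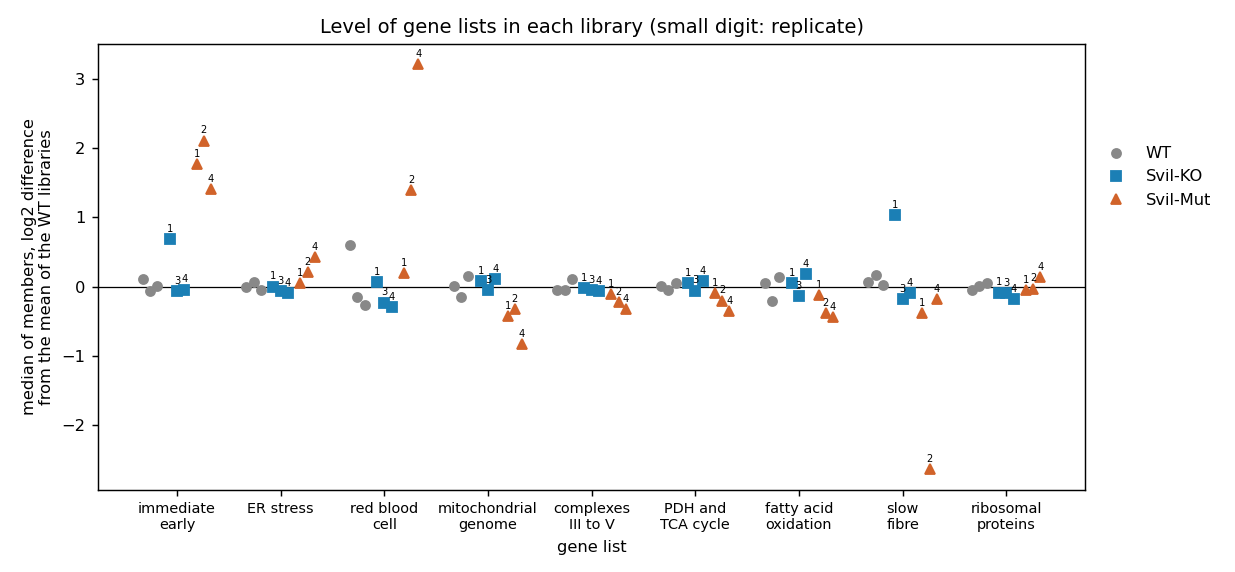
The level of 9 gene lists in each of the 9 libraries, as the median over members of the log2 difference from the WT mean (vertical axis), for WT (circles), Svil-KO (squares) and Svil-Mut (triangles), with replicate numbers beside the points of the altered strains. Immediate early genes lie at 1.41 to 2.11 in Svil-Mut, slow-fibre genes at -2.64 in Svil-Mut replicate 2 and red blood cell transcripts at 3.21 in Svil-Mut replicate 4.

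The contractile genes of slow fibres showed the largest positive median, 1.33, but it rested on few libraries. All 15 were positive, 4 had no overlap and none was called. The level of the list was 1.04 in Svil-KO replicate 1 and -2.64 in Svil-Mut replicate 2, while the other 4 libraries lay at -0.38 to -0.09. Without Svil-Mut replicate 2 the median was 0.75, and without Svil-Mut replicate 4 it was 1.88. Mb, myoglobin, the oxygen store of oxidative fibres, was at 96442, 69834 and 103818 in Svil-KO and 60350.3, 37001 and 37642 in Svil-Mut (log2 difference 1.02, adjusted p = 0.155). Myl3, a slow myosin light chain, was at 11128, 3962 and 8946 and 2260.3, 732 and 4789, which overlap (log2 difference 1.88, adjusted p = 0.38).

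The myosin heavy chains sort the fibres of a fast muscle by type. Myh2, of type IIA fibres, was at 42185, 26347 and 34599.9 in Svil-KO and 15669, 3474 and 21748 in Svil-Mut (log2 difference 1.67, adjusted p = 0.333). Myh1, of type IIX fibres, was at 255406, 201564 and 304195 and 183764, 68852 and 200618 (log2 difference 0.88, adjusted p = 0.429). For both the strains do not overlap, and Svil-Mut replicate 2 is the lowest. Myh4, of type IIB fibres, was at 2324600, 2324680 and 1942470 and 2423670, 2610190 and 1983090, with overlap (log2 difference -0.09). Of the 16 fast-fibre genes, Myh2, Myh1 and 1 other were positive and 13 negative (median -0.14), led by Tnnt3, fast troponin T (log2 difference -0.25, adjusted p = 0.369), whose difference was 0 after quantile normalization, and Actn3, the fast alpha-actinin (log2 difference -0.39, adjusted p = 0.371). Of 31 genes of calcium handling, 24 were negative (median -0.13) and 9 had no overlap. Without Svil-KO replicate 4 the medians of the fast-fibre and calcium lists were -0.08 and -0.06, and without Svil-Mut replicate 2 they were -0.09 and -0.08.

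The lists closest to the subject of the series held no called gene. For the 41 genes that relay the insulin signal to Akt or restrain it, the median was -0.004, with 20 positive and 21 negative. Irs2, an insulin receptor substrate, was at 1738, 1312 and 1105 in Svil-KO and 1699, 4855 and 4645 in Svil-Mut (log2 difference -1.31, adjusted p = 0.24). Svil-Mut replicate 1 falls within the Svil-KO range for it, while replicates 2 and 4 stand above. Tsc2, which restrains mTORC1, was at 5480.2, 5217 and 5638 and 4771, 3859.6 and 4464 (log2 difference 0.32, adjusted p = 0.312), and the insulin receptor gene Insr, with overlap, at 1321, 1668 and 1648 and 1520.1, 1513 and 1974 (log2 difference -0.11).

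Glucose transporters gave unlike values. Slc2a4, the insulin-responsive transporter GLUT4, was at 29811, 32273 and 30404 in Svil-KO and 30466, 30225 and 30750 in Svil-Mut (log2 difference 0.02 ± 0.065 SE, adjusted p = 0.961). Slc2a1 was at 473, 475 and 436 and 772, 722 and 890.3, without overlap and with WT at 493, 575 and 428 (log2 difference -0.78, adjusted p = 0.144). Tbc1d1, a Rab regulator that holds GLUT4 vesicles back, was at 7598, 6549.6 and 8360.5 and 5709, 4835 and 4472 (log2 difference 0.58, adjusted p = 0.187). The 22 genes of GLUT4 trafficking had a median of -0.06 and the 36 of glycolysis and glycogen 0.03. Among the latter, the paralogues Pfkfb1 and Pfkfb3, which set the level of the glycolytic activator fructose 2,6-bisphosphate, had opposite signs. Pfkfb1 was at 2804, 2629 and 2912 in Svil-KO and 1852, 2051 and 2064 in Svil-Mut (log2 difference 0.48, adjusted p = 0.177), and Pfkfb3 at 2232, 1382 and 972 and 2409, 3084 and 3695 (log2 difference -1.06, adjusted p = 0.318).

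Among the lists of partners and relatives of supervillin, only Svil was called. Of 7 villin and gelsolin genes, 1 was higher and 1 lower in Svil-KO without overlap. These counts were 2 and 3 of 20 cytoplasmic actin, myosin and partner genes, and 5 and 2 of 32 costamere and dystrophin complex genes. Over all genes 15.5% had no overlap. In the villin and gelsolin family, Svil alone was called among 7 tested genes, and Gsn, gelsolin itself, was at 20891, 23353 and 22672 in Svil-KO and 25313, 16862 and 25281 in Svil-Mut (log2 difference 0.01). Capg, a macrophage-rich capping protein, had a log2 difference of -0.52 (adjusted p = 0.377) without overlap. Of 20 cytoplasmic actin, myosin and partner genes, Actg1, gamma-actin, was at 1064, 1081 and 1061 and 1892, 2573 and 1479.8 (log2 difference -0.85, adjusted p = 0.148), beside Actb above. DESeq2 called these 2 actins and no other gene of the list. Of 32 genes of the costamere and the dystrophin complex, 24 were positive (median 0.08). Ank2, an ankyrin that places membrane proteins, was at 1727, 1868 and 2035 and 1366, 921 and 1203 (log2 difference 0.70, adjusted p = 0.149), and Dmd, dystrophin, at 3765, 3214 and 3156 and 4142, 3814 and 4599 (log2 difference -0.31, adjusted p = 0.51). Ank2 was higher and Dmd lower in every Svil-KO library.

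Protein synthesis and folding lists were slightly lower in Svil-KO, again without a called gene. Of 75 cytosolic ribosomal protein genes, 73 were negative (median -0.15) and 24 had no overlap. Their level was -0.09, -0.10 and -0.18 in Svil-KO, -0.05, -0.03 and 0.14 in Svil-Mut and -0.05 to 0.05 in WT, and without Svil-Mut replicate 4 the median was -0.08. Rpl4 was at 10660.1, 10907 and 10605 in Svil-KO and 11826, 12002 and 13584 in Svil-Mut (log2 difference -0.21, adjusted p = 0.348). Of 31 proteasome subunits, 27 were negative and 8 had no overlap, but their median of -0.09 is read only as close to 0.

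Of 26 genes of ER stress and the integrated stress response, 21 were negative (median -0.26) and 13 had no overlap. Besides Hspa5 and Ppp1r15a, Calr, a calcium-binding ER chaperone, was at 4888, 4993 and 5023 in Svil-KO and 5842, 6329 and 7257 in Svil-Mut (log2 difference -0.38, adjusted p = 0.217). Atf4, the factor that carries the integrated stress response, was at 5295, 5510.1 and 4913 and 5978, 7269.6 and 7237 (log2 difference -0.38, adjusted p = 0.308). Of 28 heat shock chaperones, 18 were negative and 11 had no overlap (median -0.14). The inducible Hspa1a was at 48.4, 65.2 and 55.0 and 302, 2013 and 135 (log2 difference -2.94, adjusted p = 0.24) and its partner Dnajb1 at 243, 304 and 354 and 802, 3109 and 589 (log2 difference -1.93, adjusted p = 0.23). The strains do not overlap for either, and Svil-Mut replicate 2 is the highest library for both. Without that library the differences were -1.84 for Hspa1a and -1.21 for Dnajb1.

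Some single genes stood out in lists with medians near 0. In the core clock (18 genes, median -0.07), Bhlhe40, a repressor, was at 5836, 4366 and 3398 in Svil-KO and 7553, 8729 and 9479.5 in Svil-Mut (log2 difference -0.95, adjusted p = 0.145). Arntl (BMAL1), an activator of the clock, was at 402, 476 and 525 and 817, 1091 and 750.3 (log2 difference -0.91, adjusted p = 0.176), the same direction. The metallothionein gene Mt1, which answers to metals and glucocorticoids, was at 1330.5, 899 and 1183 and 1767, 13303 and 2707 (log2 difference -1.83, adjusted p = 0.331), with Svil-Mut replicate 2 far above the rest and a difference of -0.96 without it. Cdkn1a (p21), a brake on the cell cycle, was at 532, 496 and 514 and 658, 1379 and 813 (log2 difference -0.81, adjusted p = 0.318).

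At the neuromuscular junction (16 genes, median -0.03), Musk, the kinase that organizes the synapse, was at 809, 1046 and 956 in Svil-KO and 636, 724 and 499 in Svil-Mut (log2 difference 0.60, adjusted p = 0.263). Among 17 satellite cell and myogenic genes, Myh3, embryonic myosin, was at 264, 432 and 233 and 134, 90.7 and 181 (log2 difference 1.19, adjusted p = 0.24). Myod1, a myogenic regulator, was at 1726, 1852 and 2115 and 2113, 3455 and 3022 (log2 difference -0.57, adjusted p = 0.318). Myh3 had no overlap and Myod1 did, with opposite signs. The median was -0.09 for 22 atrophy and proteolysis genes and 0.01 for 20 genes of the myostatin, follistatin and IGF axis.

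Markers of other cell types had no called gene. The endothelial markers had a median of -0.06 (20 genes, 1 without overlap), which turned to 0.08 without Svil-Mut replicate 4 and to 0.02 without Svil-KO replicate 3 and was -0.14 without Svil-Mut replicate 2. The pericyte and smooth muscle markers had a median of 0.06 (14 genes, 2 without overlap). The fibro-adipogenic and tenocyte markers had a median of 0.09, which became -0.14 without Svil-Mut replicate 2 and -0.03 without Svil-KO replicate 4. Of these 19 genes, 12 had a positive and 7 a negative difference, and 3 had no overlap, against 15.5% of all genes. The tendon gene Chad was at 975, 651 and 519.9 in Svil-KO and 478, 91.6 and 269 in Svil-Mut (log2 difference 1.60), lowest in Svil-Mut replicate 2. Scx, of the same list, had the opposite sign (log2 difference -0.61). Macrophage and leukocyte markers were at -0.27, 0.03 and 1.20 in Svil-Mut and -0.20, 0.71 and -0.30 in Svil-KO, so Svil-KO replicate 3 and Svil-Mut replicate 4 stood above the others. Their median of -0.19 became 0.30 without Svil-Mut replicate 4 and -0.46 with replicate 1 of that strain left out. It turned positive, at 0.07 and 0.01, when Svil-KO replicate 1 or 4 was left out. Of 27 collagen and matrix genes tested (median 0.14, and 0.09 without Svil-Mut replicate 2 or 4), 18 had a positive and 9 a negative difference. Without overlap were 4 of them, against 15.5% of all genes, and the smallest adjusted p was 0.371. The 2 highest differences were those of Col1a1, at 3754, 1825 and 2034 and 1814, 1356 and 518, and Col1a2, at 5378, 3195 and 3906 and 3028, 2122 and 1002 (log2 differences 1.15 and 1.13). Col18a1 (-0.57) and Col6a3 (-0.54) had the opposite sign. The Schwann cell markers had a median of 0.16, which became -0.01 without Svil-KO replicate 4, and only 2 of 8 chondrocyte and bone markers were high enough to test. The part of these markers in the other differences was not tested.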

How the data were processed

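Gene expression was measured in 9 TA muscle libraries, of which the 3 Svil-KO and the 3 Svil-Mut libraries were compared. The genotype label gave the groups, and the titles gave the replicate numbers. The submitters' processing notes name HISAT2, featureCounts, DESeq2 and the mm10 build. Which versions, settings and annotation were used is not given in the sources used here. What the authors deposited is a signal for each gene in each library, a read count divided by a size factor. In every library a single step divided 100% of the nonzero values into whole numbers, within 0.001, so whole reads were recovered. No library repeated another of its genotype: the smallest mean chi-square per gene between any 2 was 23.0, where counting noise gives 1. Without molecular identifiers, reads are not independent molecules, and size factors correct for neither transcript length nor GC content.

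The test was limma 3.58.1 (R 4.3.3) on log2(value + 1), with all 9 libraries in 1 fit, genotype as the only factor, a mean-variance trend and 2-sided p-values adjusted over the 14640 genes. This scale understates changes of genes with low counts. Of the genes tested, 36 reached 10 only in Svil-KO libraries and 28 only in Svil-Mut libraries. EdgeR 4.0.16 (TMM normalization) and DESeq2 1.42.0, which gave an adjusted p for 14628 genes, were run on the recovered reads. Other alternatives were pseudocounts of 0.5 and 10, no filter or a mean of at least 50, equal totals, quantile normalization, other variance models, library weights, the 6 libraries alone, a replicate block, an adjusted p of 0.10 and leaving out each library. The steps were tested on simulated counts. Python 3.11.15 and matplotlib 3.10.9 served for motifs and figures.

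The comparison, the lists and the members were chosen with earlier results of these data known. The 45 lists held 1101 entries of 1051 distinct genes. Named genes were Svil, every called gene, the genes without overlap, with a mean of at least 50 in the higher genotype and a symbol that is not that of a predicted gene, by smallest p up to 25 in all, up to 4 members of each described list by p, and genes within 10 Mb of Svil without overlap and with p under 0.01. Named after their values were seen were Mir133a-1hg, Fosl2, Junb, Jun, Nr4a1, Nr4a3, Egr1, Id2, Id3, Id4, Ppargc1a, Myh4, Insr, Slc2a4, Gsn, Cables1, Ergic1 and the genes called only without 1 library. Positions are those of GENCODE M21 (GRCm38), found for 95.98% of tested genes.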

Additional observations from a re-analysis of the deposited data

How the results depend on the processing

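The count of 7 called genes was 4 without a mean-variance trend, 207 by DESeq2 on the recovered reads and 19 at an adjusted p under 0.10. Leaving out 1 library gave 5 to 13 genes, the fewest without replicate 4 of WT or replicates 3 or 4 of Svil-KO and the most without Svil-KO replicate 1. The other alternatives gave 6 to 10. With a replicate block 6 genes were called, 3 of them among the 7. Correlations of the deviations of same-numbered libraries were -0.04 to 0.04. Between WT and Svil-KO they were 0.031, 0.043 and 0.042, against -0.037 to -0.004 for libraries of unlike number. Same-numbered pairs with a Svil-Mut library were all negative (-0.043 to -0.001). Whether these samples share more than a number is not stated, and with 3 libraries per genotype the correlations cannot decide it. The log2 difference of Svil was 0.59 to 0.71 with 1 of the 6 libraries left out, where the smallest exact permutation p possible is 0.2. Of the values of named genes under the alternatives, 3984 kept their direction and side of the threshold, 71 gained a call, 22 lost it and 1 changed direction: Tnnt3 was at 0 after quantile normalization. List medians moved in 28 cases and stayed within their spread in 962. Those of the Id and BMP, villin, actin partner, insulin, glycolysis, neuromuscular, satellite cell, myostatin, endothelial, fibro-adipogenic, macrophage, Schwann cell and chondrocyte lists changed sign under at least 1 alternative, and those of the other lists under none of the 22. Causes were not tested. Depth did not limit genes with high counts, but 3 mice per strain limit what can be called.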
